A study of Mus musculus with 6 samples.

Results

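Cholesterol and fatty acid synthesis genes were examined in eosinophils of the mouse small intestine that had been cultured with the cytokine GM-CSF. The set has 38 members, chosen by name for their textbook roles with earlier results of these data known, of 23283 gene symbols in the expression tables, and all 38 were found (Msmo1 under its older symbol Sc4mol). By role, 19 encode enzymes of the mevalonate and sterol steps (the sterol branch), 10 encode enzymes of fatty acid synthesis, elongation and desaturation, 5 regulate the pathway, 2 handle free or stored sterol, and 2 are efflux pumps.

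The cells came from mice of the BALB/c strain, and no label gives their age, sex or any altered allele. GM-CSF(+) cultures received the cytokine at 10 ng/ml for 4 hours, and GM-CSF(-) cultures, called untreated here, were kept for the same time without it. There were 3 libraries per group. No label ties the 3 cultures of either group to different mice, and p-values therefore reflect the variation among these libraries alone, which may be technical. No source used here gives the isolation of the cells.

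Cells make cholesterol from acetyl-CoA by way of mevalonate, isoprenoids, squalene and lanosterol, and make fatty acids from the same acetyl-CoA by carboxylation, chain building, elongation and desaturation. When sterol in the endoplasmic reticulum is low, the escort protein Scap carries the transcription factors SREBP-1 (gene Srebf1) and SREBP-2 (gene Srebf2) to the Golgi, where they are cut and released to switch on synthesis genes. Insig proteins hold Scap back when sterol is ample, and oxysterols then act through LXR receptors to raise the efflux pumps Abca1 and Abcg1. GM-CSF is a growth and survival cytokine for eosinophils.

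Values are FPKM, fragments per kilobase of transcript scaled to the mapped total, summed per gene in each library. Deposited coverage divided by FPKM was constant within a library and ran from 0.820 to 1.32 gigabases, so that a gene at 1 FPKM was covered between 0.820 and 1.32 times per base. Genes averaging 1 FPKM or more across all libraries entered a limma fit on log2(FPKM + 1). Fold changes are given on this scale, where those of low genes come out smaller than they are. A gene is said to have risen or fallen where its Benjamini-Hochberg adjusted p over all 10106 tested genes was under 0.05. By that rule 776 genes rose (7.68% of those tested) and 1436 fell (14.2%), with a median log2 fold change of -0.05. Median-of-ratios scaling gave 1078 rises and 968 falls, quantile normalization 950 and 1111, and scaling to one FPKM sum 791 and 913.

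The eosinophil label was checked against defining markers. The surface markers Siglecf (listed as Siglec5) and Ccr3 were abundant, at 170.4 and 251.3 FPKM on average with GM-CSF and 170.1 and 289.0 FPKM untreated. Ear1 and Ear2 averaged under 1 FPKM over the 6 libraries. Of 10 eosinophil markers 8 were tested, 1 rose and 4 fell, with sums of 741.9 to 844.7 FPKM with GM-CSF and 1131 to 1314 FPKM untreated. Alox15, at 157.0 FPKM with GM-CSF and 460.6 FPKM untreated, made up most of that gap. Il5ra, Cebpe and Epx also fell and Gata1 rose. Genes listed as markers of other cells were also detected, and several changed with treatment. Such lists do not show which cells the RNA came from, eosinophils included. Of 13 epithelial markers 11 were tested, 6 fell and none rose, and their summed level was 62.7 to 78.9 FPKM with GM-CSF and 98.6 to 110.2 FPKM untreated. Vil1 and Muc2 averaged under 1 FPKM over the 6 libraries. Of 6 B and plasma cell markers 5 were tested and all 5 fell, with sums of 16.1 to 17.5 FPKM with GM-CSF and 30.7 to 38.03 FPKM untreated. Of 6 T cell markers 5 were matched and tested and 4 fell, with sums of 14.6 to 17.7 FPKM with GM-CSF and 26.4 to 27.8 FPKM untreated. Of 8 macrophage and dendritic cell markers 6 were tested and 3 fell, and C1qa and C1qb were under 1 FPKM. The sum of the 8 was 963.2 to 1036 FPKM with GM-CSF and 920.2 to 990.3 FPKM untreated. Itgax, Adgre1 (listed as Emr1) and Cd68 held most of it, averaging 440.2, 397.1 and 96.2 FPKM over the 6 libraries. None of these rose or fell by the rule above, and whether macrophages or eosinophils expressed them was not tested. Sums of 5 matched neutrophil markers were 40.5 to 53.9 FPKM with GM-CSF and 57.9 to 70.7 FPKM untreated. Of these 2 were tested and S100a8 fell, and Elane and Camp were at 0 in every library. Of 4 mast cell markers 2 were tested and Kit fell (sums of 6.20 to 8.83 FPKM with GM-CSF and 7.66 to 16.9 FPKM untreated). Of 5 stromal or endothelial markers 2 were tested, Pecam1 fell and Pdgfra rose (117.7 to 132.4 FPKM with GM-CSF and 151.7 to 168.7 FPKM untreated). Pecam1 made up most of these sums, and Col1a1, Col3a1 and Cdh5 were under 1 FPKM. Both erythroid markers matched were under 1 FPKM on average. The part of these cells in the changes described next was not tested. Fewer cells of a type and less RNA per cell cannot be told apart in such bulk libraries.

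GM-CSF was accompanied by modest rises along the cholesterol pathway. Falls were called for Ebp of the sterol branch, Acss2 of the fatty acid branch and the efflux pump Abca1. Acss2 alone was 14.3% of the tested fatty acid members, near the 14.2% of all tested genes that fell. The call of Abca1 was lost in 11 of 15 alternative settings and that of Ebp in 12 of 16. Of the 38 members 34 were abundant enough to be tested, and of these 9 rose, 3 fell and 22 did not pass. The 9 rises were 26.5% of the tested members, against 7.68% of all tested genes, and the 3 falls were 8.82%, against 14.2%. None changed as much as 1.5-fold in its mean FPKM. Risers were higher by between 19.2% and 46.2%, and the 3 that fell were lower by between 10.9% and 29.9%.

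**Figure D1:**
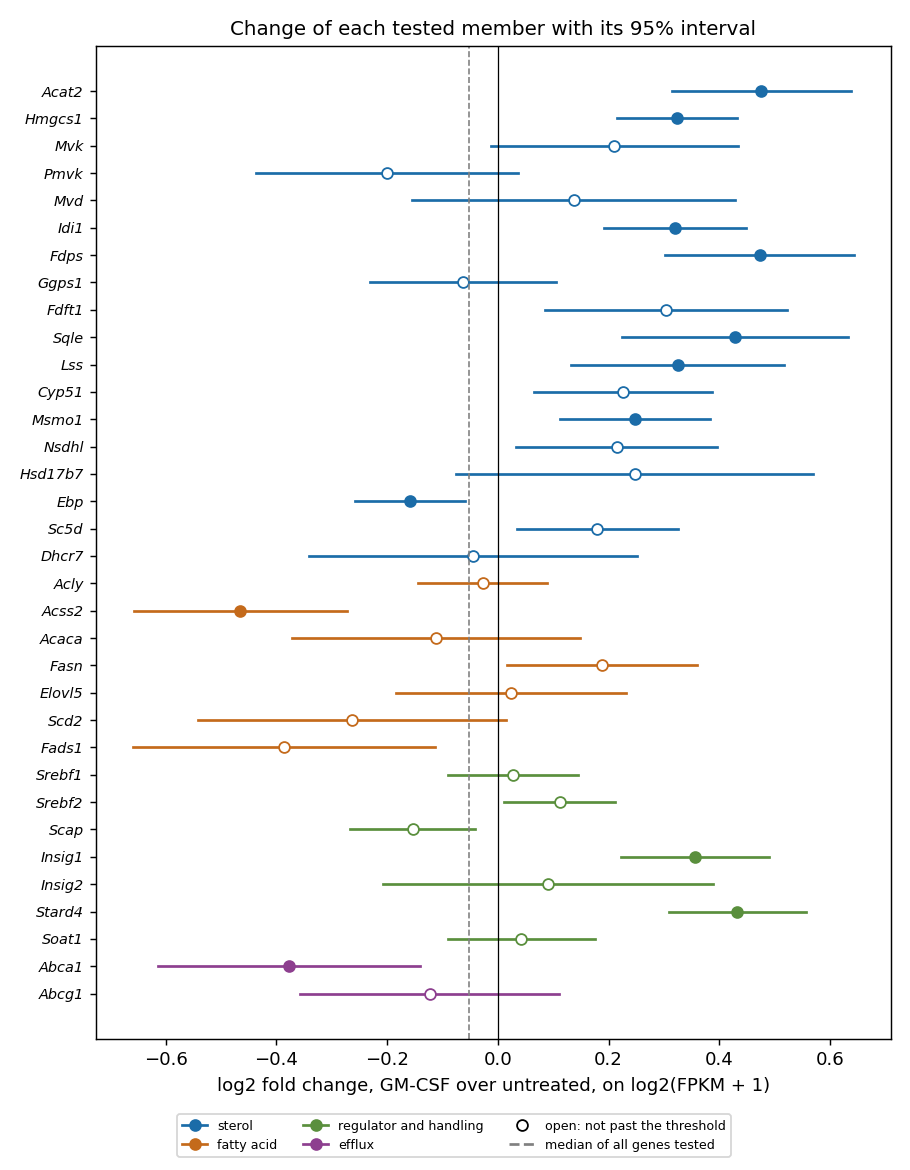
Log2 fold change (x axis, GM-CSF over untreated, on log2(FPKM + 1)) of the 34 tested members in pathway order, with 95% intervals from limma; filled points passed the adjusted p threshold of 0.05 and the dashed line is the median of all tested genes. Most sterol branch points lie right of 0, led by Acat2 at 0.48 and Fdps at 0.47, while Acss2 at -0.47 is the lowest point.

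The early mevalonate steps held 4 of the rises. Acat2, the cytosolic thiolase that joins acetyl-CoA units, measured 7.60, 7.86 and 8.20 FPKM in GM-CSF libraries and 5.53, 4.99 and 5.66 FPKM in untreated libraries (log2 fold change 0.48, SE 0.07, limma adjusted p = 0.00380). Every GM-CSF library lay above every untreated one. Its near copy Acat3, with which reads may be shared, averaged 16.4 ± 0.601 FPKM with GM-CSF and 13.9 ± 0.629 FPKM untreated (SD, n = 3 each), and the sum of Acat2 and Acat3 also rose (log2 fold change 0.32, limma adjusted p = 0.00726).

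Hmgcs1, the synthase that makes HMG-CoA, measured 40.8, 40.3 and 42.8 FPKM with GM-CSF, against 32.1, 34.0 and 32.3 FPKM untreated. The groups did not overlap, and the log2 fold change was 0.32 (SE 0.05, limma adjusted p = 0.00349). Idi1, which isomerises isopentenyl diphosphate so that isoprenoid chains can start, had 23.9, 22.0 and 23.6 FPKM with GM-CSF and 17.8, 18.2 and 19.2 FPKM untreated. It too was separated by group (log2 fold change 0.32, SE 0.05, limma adjusted p = 0.00714). Fdps, the synthase that makes farnesyl diphosphate, measured 40.7, 39.6 and 40.4 FPKM with GM-CSF and 31.4, 25.9 and 29.1 FPKM untreated. The untreated libraries were lower and more scattered, and the log2 fold change was 0.47 (SE 0.07, limma adjusted p = 0.00491).

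A further 4 genes of the mevalonate steps did not pass. Mvk, the kinase that starts the phosphorylation of mevalonate, was low at 2.02 ± 0.198 FPKM with GM-CSF and 1.61 ± 0.141 FPKM untreated (SD, n = 3 each), with groups that did not overlap (log2 fold change 0.21, 95% interval -0.01 to 0.43, limma adjusted p = 0.164). Pmvk, the following kinase, averaged 15.1 and 17.5 FPKM with and without GM-CSF, and Mvd, the decarboxylase after it, 11.8 and 10.7 FPKM. Their log2 fold changes were -0.20 (95% interval -0.44 to 0.04) and 0.14 (95% interval -0.15 to 0.43). Ggps1, which turns farnesyl diphosphate into the longer isoprenoid used to prenylate proteins, stood outside the direct route to sterol and averaged 10.7 FPKM with GM-CSF and 11.2 FPKM untreated (log2 fold change -0.06, 95% interval -0.23 to 0.11).

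From squalene onward 3 members rose and 1 fell. Sqle, the squalene epoxidase and a flux-controlling step, measured 16.7, 19.3 and 18.4 FPKM with GM-CSF and 13.2, 11.99 and 14.5 FPKM untreated. All GM-CSF values were the higher ones (log2 fold change 0.43, SE 0.08, limma adjusted p = 0.0138). Msmo1, an oxidase that removes methyl groups from the sterol ring, was the most abundant enzyme of the set, at 69.7, 71.5 and 63.4 FPKM with GM-CSF and 55.3, 56.9 and 59.4 FPKM untreated (log2 fold change 0.25, SE 0.06, limma adjusted p = 0.0235). Its call ended without GM-CSF replicate 1 (adjusted p = 0.0777) or 2 (0.0715), and without untreated replicate 1 (0.0710) or 2 (0.0762). It ended too with a replicate block (0.0624).

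Lss, which closes squalene epoxide into lanosterol, was scarce. It measured 3.25, 2.93 and 2.89 FPKM with GM-CSF and 2.35, 2.22 and 2.07 FPKM untreated (log2 fold change 0.32, SE 0.08, limma adjusted p = 0.0304). Groups were apart, but the call ended without any one of the 6 libraries (adjusted p between 0.0555 and 0.101), without a filter on low values (0.0688) and with a replicate block (0.0511). Ebp, the isomerase late in the pathway, went the other way, at 19.1, 19.8 and 19.5 FPKM with GM-CSF and 21.5, 21.9 and 22.1 FPKM untreated (log2 fold change -0.16, SE 0.04, limma adjusted p = 0.0371). This was the smallest change among the 12 called members. The call ended without any one library (adjusted p between 0.0735 and 0.119) and under each of the 3 other scalings (between 0.0536 and 0.213).

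Several neighbours in the same stretch came close to the threshold. Fdft1, the squalene synthase at the entry to sterols, averaged 20.0 ± 2.34 FPKM with GM-CSF and 16.0 ± 1.06 FPKM untreated (log2 fold change 0.30, limma adjusted p = 0.0592), and Cyp51, the lanosterol demethylase, 18.1 ± 1.49 and 15.3 ± 0.290 FPKM (0.23, adjusted p = 0.0574; SD, n = 3 each). With median-of-ratios scaling both passed (adjusted p = 0.0387 and 0.0278), and Cyp51 also passed without GM-CSF replicate 3 (0.0163). Nsdhl, which takes part in removing the ring methyl groups, averaged 9.02 and 7.65 FPKM with and without GM-CSF (0.21, adjusted p = 0.0963; 0.0484 without untreated replicate 3), and Sc5d, the sterol desaturase, 24.5 and 21.5 FPKM (0.18, adjusted p = 0.0853). Of 16 alternatives, Fdft1 did not pass in 13, Cyp51 in 11, Nsdhl in 13 and Sc5d in 16. For these 4 genes, as for the 7 risers of the branch, the 3 GM-CSF values were the 3 highest. Hsd17b7 averaged 2.11 and 1.63 FPKM with and without GM-CSF (0.25, 95% interval -0.08 to 0.57). Dhcr7, the reductase that completes cholesterol, measured 1.86 and 1.95 FPKM (-0.05, 95% interval -0.34 to 0.25). Tm7sf2, a sterol reductase, was under 1 FPKM in every library and was not tested.

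Taken over the branch, 18 of 19 members were tested, 7 rose (38.9%), 1 fell (5.56%) and 10 did not pass. Over all tested genes 7.68% rose and 14.2% fell. The median log2 fold change of the branch was 0.24, against -0.05 over all tested genes. Groups did not overlap with GM-CSF above for 12 of the 18, where 13.2% of all tested genes did so. The summed level of the branch was 341.6, 339.4 and 330.9 FPKM in GM-CSF libraries and 283.3, 284.0 and 289.7 FPKM in untreated libraries, that is 337.3 ± 5.66 and 285.7 ± 3.48 FPKM (SD, n = 3 each), a difference of 18.1%.

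**Figure D2:**
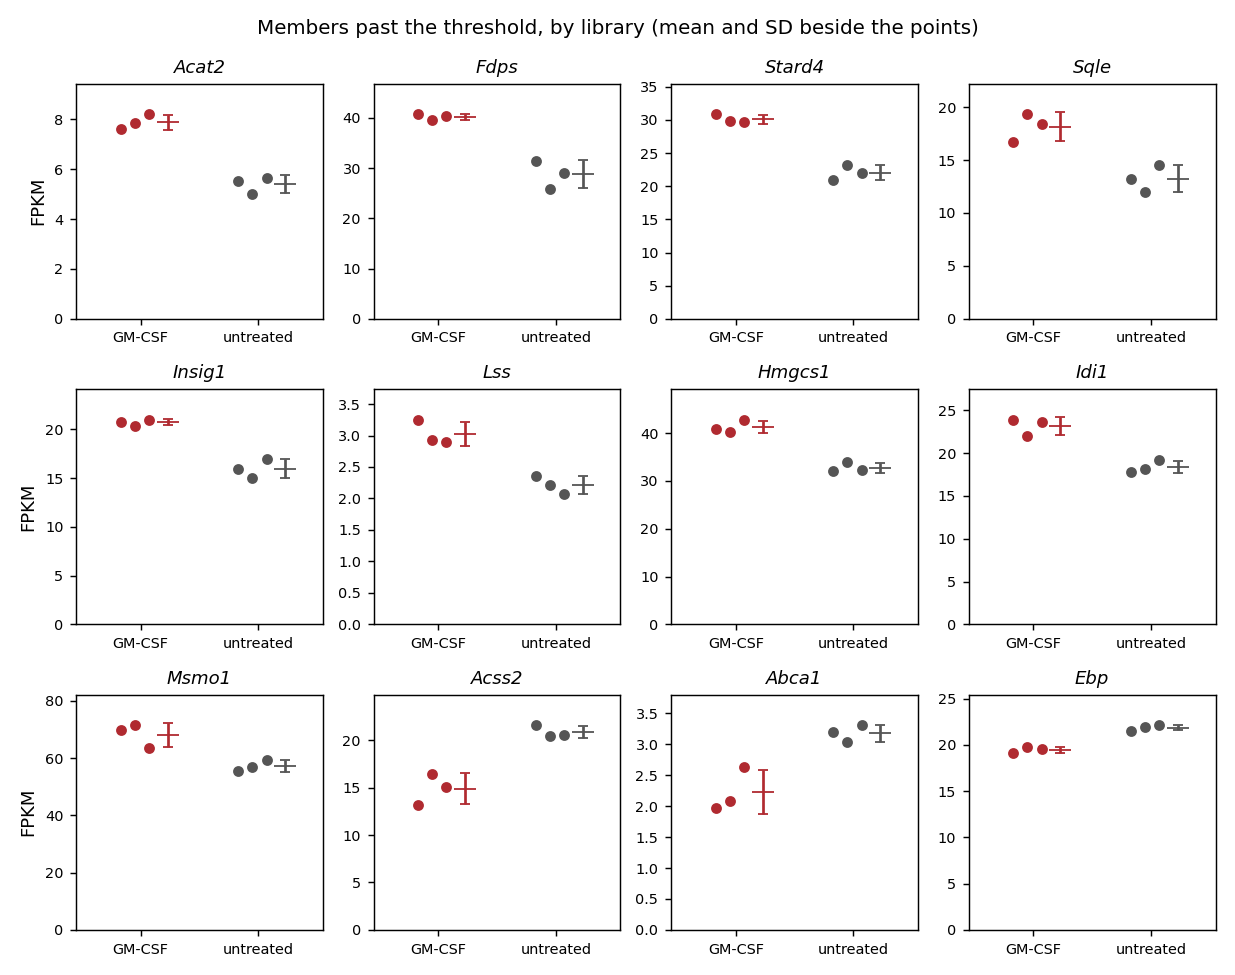
FPKM (y axes, from 0) of the 12 members past the threshold in the 3 GM-CSF libraries (red, left) and 3 untreated libraries (grey, right), each with its mean and SD beside the points; the 9 rises come first and the 3 falls last. In each panel the groups are apart, for example Acat2 at 7.60 to 8.20 FPKM with GM-CSF and 4.99 to 5.66 FPKM untreated.

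Of the 5 regulators, Insig1 passed and the other 4 did not. Insig1, itself a target of SREBP factors and the protein that retains Scap, measured 20.8, 20.4 and 21.0 FPKM with GM-CSF and 15.9, 15.05 and 17.0 FPKM untreated (log2 fold change 0.36, SE 0.06, limma adjusted p = 0.00553). All GM-CSF values lay well above. Insig2, its relative, averaged 8.36 ± 1.16 FPKM with GM-CSF and 7.79 ± 1.07 FPKM untreated (SD, n = 3 each), with overlapping groups (log2 fold change 0.09, 95% interval -0.21 to 0.39). The log2 fold changes of Insig1 and Insig2 were not tested against each other.

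Srebf2, which encodes the SREBP factor that mainly drives cholesterol genes, was the most abundant member, at 149.5, 143.5 and 137.4 FPKM with GM-CSF and 133.0, 134.2 and 130.8 FPKM untreated. All 3 GM-CSF values were higher, but the change of 0.11 on the log2 scale (95% interval 0.01 to 0.21) did not pass (limma adjusted p = 0.116). It passed with median-of-ratios scaling (0.0480) and did not pass in 15 of 16 alternatives. Srebf1, which encodes the factors that mainly drive fatty acid genes, measured 16.3 ± 0.414 FPKM with GM-CSF and 16.0 ± 0.556 FPKM untreated (SD, n = 3 each; log2 fold change 0.03, 95% interval -0.09 to 0.15). Scap, the escort, averaged 17.1 and 19.1 FPKM with and without GM-CSF, all 3 GM-CSF values being lower (log2 fold change -0.15, limma adjusted p = 0.0626). Of all tested genes 26% likewise had GM-CSF values below all untreated ones. Scap passed as a fall where genes under a mean of 5 FPKM were left out (0.0399), and did not pass in 15 of 16 alternatives.

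Stard4, a carrier that moves free cholesterol between membranes and a known SREBP-2 target, had the lowest adjusted p of the set. It measured 30.9, 29.8 and 29.6 FPKM with GM-CSF and 20.9, 23.3 and 22.0 FPKM untreated, without overlap (log2 fold change 0.43, SE 0.05, limma adjusted p = 0.00192). Soat1, which esterifies cholesterol for storage, averaged 18.01 ± 0.846 FPKM with GM-CSF and 17.5 ± 0.701 FPKM untreated (SD, n = 3 each; log2 fold change 0.04, 95% interval -0.09 to 0.18). Of these 7 regulators and sterol handling genes 2 rose (28.6%), none fell (0%) and 5 did not pass, against 7.68% and 14.2% of all tested genes. Their median log2 fold change was 0.09, against -0.05 over all tested genes.

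Of the 10 members of the fatty acid branch 7 were tested, none rose and 1 fell. That is 0% and 14.3% of those tested, against 7.68% and 14.2% of all tested genes. The median log2 fold change was -0.11, against 0.24 in the sterol branch and -0.05 over all tested genes. The difference between the branches has no test here. At an unadjusted limma p under 0.05, Fasn was higher, while Acss2 and Fads1 were lower. The share of all tested genes at that unadjusted p was not taken, and 21.9% passed the stricter adjusted threshold in either direction. Summed levels were 108.9, 103.8 and 108.0 FPKM with GM-CSF and 110.3, 114.5 and 120.5 FPKM untreated, so the groups were apart by a small margin and the mean was lower by 7.12%. Most of this difference was held by Acss2, which averaged 14.9 FPKM with GM-CSF and 20.9 FPKM untreated.

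Acss2, the synthetase that makes cytosolic acetyl-CoA from acetate, was the member that fell. It measured 13.2, 16.4 and 15.1 FPKM with GM-CSF and 21.6, 20.5 and 20.6 FPKM untreated, with every GM-CSF value below every untreated one (log2 fold change -0.47, SE 0.08, limma adjusted p = 0.00801). Acly, which makes the same acetyl-CoA from citrate, was the most abundant member of the branch and measured 43.4, 43.2 and 44.9 FPKM with GM-CSF and 42.7, 44.2 and 47.2 FPKM untreated. These groups overlapped (log2 fold change -0.03, 95% interval -0.14 to 0.09). Its direction turned under 4 alternatives, among them median-of-ratios scaling.

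The committed steps were expressed at low levels. Acaca, the acetyl-CoA carboxylase, averaged 1.46 ± 0.147 FPKM with GM-CSF and 1.66 ± 0.271 FPKM untreated (log2 fold change -0.11, 95% interval -0.37 to 0.15). Fasn, the fatty acid synthase, averaged 3.99 ± 0.208 FPKM with GM-CSF and 3.38 ± 0.162 FPKM untreated without overlap (SD, n = 3 each; log2 fold change 0.19, limma adjusted p = 0.117). It passed with median-of-ratios scaling (0.0472) and quantile normalization (0.0424), and did not pass in 13 of 15 alternatives. The elongase gene Elovl5 was abundant, at 34.8 and 34.1 FPKM with and without GM-CSF (log2 fold change 0.02, 95% interval -0.18 to 0.23).

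Of the 4 desaturase genes, Fads1 and Scd2 were tested and neither passed. Fads1, which desaturates polyunsaturated chains, measured 5.96, 4.43 and 5.14 FPKM with GM-CSF and 7.004, 6.34 and 7.82 FPKM untreated, without overlap, which held for 26% of all tested genes in this direction (log2 fold change -0.39, SE 0.11, limma adjusted p = 0.0556). It passed without GM-CSF replicate 1 (0.0384) and with a replicate block (0.0472), and did not pass in 14 of 16 alternatives. Scd2, a stearoyl-CoA desaturase, averaged 1.78 FPKM with GM-CSF and 2.34 FPKM untreated (log2 fold change -0.26, limma adjusted p = 0.163). Scd1, Elovl6 and Fads2 were under 1 FPKM in every library and were not tested.

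Both efflux pump genes had negative changes, of which 1 passed. Abca1, which loads cholesterol onto apolipoprotein acceptors, was low, at 1.98, 2.08 and 2.63 FPKM with GM-CSF and 3.20, 3.04 and 3.31 FPKM untreated (log2 fold change -0.38, SE 0.10, limma adjusted p = 0.0371). Groups did not overlap, and 26% of all tested genes likewise had GM-CSF values below all untreated ones. The call ended without GM-CSF replicate 1 or 2 and without untreated replicate 1, 2 or 3 (adjusted p between 0.0819 and 0.109). It ended under the 3 other scalings as well (0.0563 to 0.0785). Abcg1, which exports sterol to lipoproteins, was the more abundant of the pair, at 8.69, 9.65 and 10.3 FPKM with GM-CSF and 9.4996, 10.1 and 11.9 FPKM untreated, and these overlapped (log2 fold change -0.12, 95% interval -0.36 to 0.11). The falls of Abca1 and of the epithelial, B cell and T cell markers given above were measured in the same libraries.

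**Figure D3:**
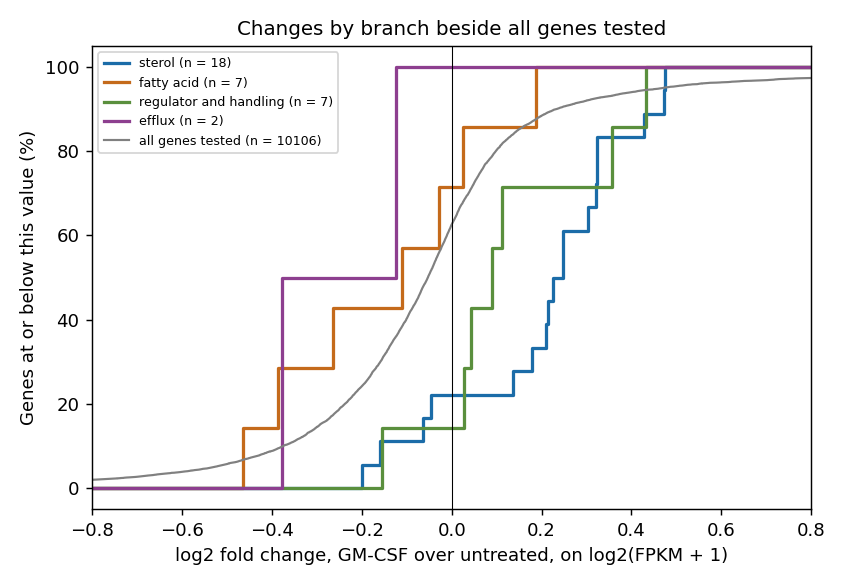
Cumulative share of genes (y axis, percent) at or below each log2 fold change (x axis, GM-CSF over untreated, on log2(FPKM + 1)) for the tested members of each branch and for all 10106 tested genes (grey). The sterol curve lies mostly to the right of the grey curve with a median of 0.24, and the fatty acid curve runs left of it over most of its length with a median of -0.11.

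**Figure D4:**
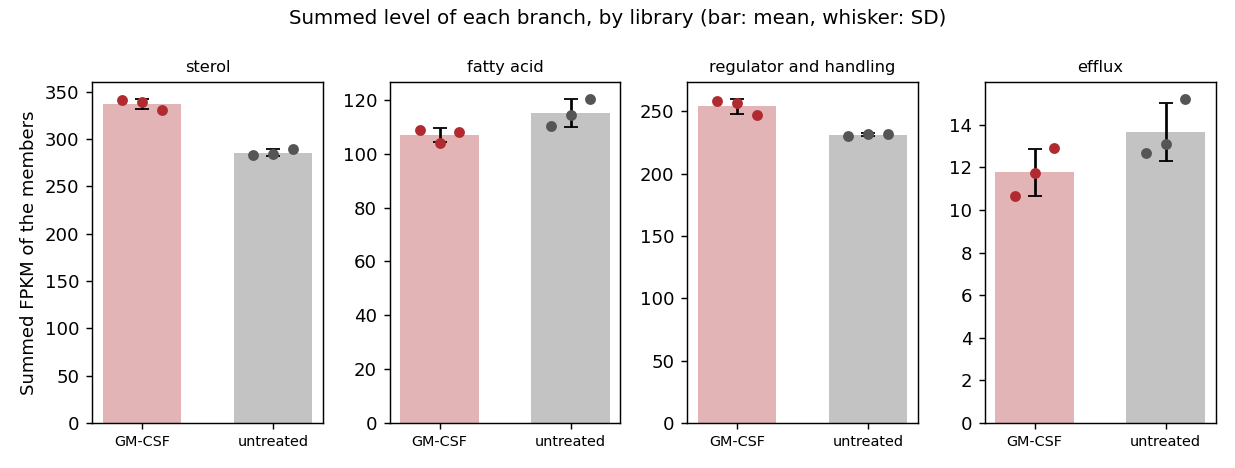
Summed FPKM of all members of each branch (y axes, from 0) in the 3 GM-CSF and 3 untreated libraries; bars are means, whiskers SD and points single libraries. The sterol sum is higher with GM-CSF (337.3 and 285.7 FPKM), the fatty acid sum is lower (106.9 and 115.1 FPKM), and the efflux sums overlap (10.7 to 12.9 and 12.7 to 15.2 FPKM).

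Promoters are shown for the 5 called members with the largest log2 fold change whose promoter in RefSeq (GRCm38.p6) held a searched motif. They run 5′ to 3′ on the gene's strand from 250 bases before the start to 50 after it. Capitals mark the CCAAT box bound by NF-Y, a partner of SREBP factors, read as CCAAT or ATTGG, and the sterol regulatory element core TCACNCCAC. No 2 matches overlap in these 5 sequences.
Insig1 (chr5:28071162-28071461, plus strand): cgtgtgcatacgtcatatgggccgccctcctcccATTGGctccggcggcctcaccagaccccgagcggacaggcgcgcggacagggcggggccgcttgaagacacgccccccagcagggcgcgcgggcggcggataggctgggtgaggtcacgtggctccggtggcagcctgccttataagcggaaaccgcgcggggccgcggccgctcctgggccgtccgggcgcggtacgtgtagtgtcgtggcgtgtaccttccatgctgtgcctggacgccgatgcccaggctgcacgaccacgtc
Lss (chr10:76531355-76531654, plus strand): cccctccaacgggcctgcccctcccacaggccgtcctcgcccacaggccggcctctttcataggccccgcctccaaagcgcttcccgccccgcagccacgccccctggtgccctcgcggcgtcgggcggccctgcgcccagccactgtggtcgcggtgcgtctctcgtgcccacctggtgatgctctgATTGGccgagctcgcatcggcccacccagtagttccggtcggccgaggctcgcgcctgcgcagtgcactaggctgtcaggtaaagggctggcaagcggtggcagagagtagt
Hmgcs1 (chr13:119690101-119690400, plus strand): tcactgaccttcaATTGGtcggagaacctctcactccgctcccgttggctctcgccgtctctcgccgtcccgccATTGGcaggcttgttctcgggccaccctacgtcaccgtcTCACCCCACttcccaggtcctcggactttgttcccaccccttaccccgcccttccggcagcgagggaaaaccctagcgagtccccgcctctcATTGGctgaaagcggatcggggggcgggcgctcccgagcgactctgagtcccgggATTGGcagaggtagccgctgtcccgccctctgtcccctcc
Idi1 (chr13:8885356-8885655, plus strand): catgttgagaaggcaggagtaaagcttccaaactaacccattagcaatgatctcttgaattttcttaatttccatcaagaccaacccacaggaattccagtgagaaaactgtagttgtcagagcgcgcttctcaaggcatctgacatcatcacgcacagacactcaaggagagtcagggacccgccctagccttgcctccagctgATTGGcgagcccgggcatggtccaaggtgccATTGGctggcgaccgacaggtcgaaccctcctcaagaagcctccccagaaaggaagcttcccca
Msmo1 (chr8:64733529-64733828, minus strand): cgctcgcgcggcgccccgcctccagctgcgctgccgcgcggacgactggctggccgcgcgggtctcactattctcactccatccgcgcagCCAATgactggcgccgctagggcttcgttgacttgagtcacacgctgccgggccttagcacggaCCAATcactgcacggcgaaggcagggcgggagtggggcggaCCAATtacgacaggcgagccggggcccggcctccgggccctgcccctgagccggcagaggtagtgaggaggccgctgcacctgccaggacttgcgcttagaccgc

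Of the 38 members 30 had a promoter in the table. Either strand was searched. A CCAAT box lay in 24 of these 30 genes (80.0%), against 41.1% of all 27025 genes with a promoter of the same length, and in 15 of 16 sterol branch genes, 4 of 7 fatty acid genes and 5 of 6 regulator and sterol handling genes. It lay in 5 of the 6 risers that had a promoter and in 2 of the 3 that fell, Acss2 and Ebp. Msmo1 held 3 boxes, starting 160, 96 and 55 bases before the gene start, and Hmgcs1 held 4. The core TCACNCCAC was matched in Hmgcs1 alone among the 30, starting 137 bases before the gene start, against 1.44% of all genes. The LXR direct repeat, AGGTCA followed after any 4 bases by AGGTCA, was matched in none of the 30 and in 4 of all genes. Such matches describe the letters in this window and say nothing of whether a factor binds there.

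Members also differed in where they sat in the genome. Transcribed neighbours on the other strand share exon sequence with several of them in GENCODE M21 (GRCm38), among them Ctsb with Fdft1, Akap9 with Cyp51, and Ggt7 and Gss with Acss2. The library kit keeps strand, but no source used here says whether strand was used in assigning reads, so values of these genes may hold reads of the neighbour. Fdps shares exon sequence with Gm43738 on its own strand, and strand cannot separate those reads. For position, Hmgcs1 lies on chromosome 13 from 119690379 to 119708260, Insig1 on chromosome 5 from 28071363 to 28078662, Acss2 on chromosome 2 from 155517948 to 155585724 and Abca1 on chromosome 4 from 53030787 to 53159895.

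Levels within the set spanned from 0.189 FPKM for Fads2 to 138.1 FPKM for Srebf2, as means over the 6 libraries. Srebf2 lay above 94.3% of tested genes, Msmo1 above 87.6%, Acly above 82.3% and Hmgcs1 above 79.5%. Among the tested members, Acaca (7.41%), Mvk (10.1%), Hsd17b7 (10.5%), Dhcr7 (10.8%) and Scd2 (12.4%) stood lowest.

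Other genes of the pathway were taken as 3 lists of 48 genes in all, of which 39 were tested, 5 rose (12.8%) and 6 fell (15.4%), against 7.68% and 14.2% of all tested genes. Among 18 further synthesis enzymes 13 were tested, 3 rose (23.1%) and 1 fell (7.69%). Hsd17b12, a reductase of the chain elongation cycle, averaged 52.4 ± 1.63 FPKM with GM-CSF and 40.4 ± 1.87 FPKM untreated (SD, n = 3 each; log2 fold change 0.37, limma adjusted p = 0.00299). Tecr, which completes the same cycle, fell to 26.3 ± 0.626 FPKM with GM-CSF, against 35.4 ± 3.25 FPKM untreated (SD, n = 3 each; -0.41, adjusted p = 0.00730), though its most abundant transcript alone had a positive change (0.26, adjusted p = 0.471).

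Among 14 genes of sterol sensing and transcription 12 were tested and none passed by limma. The median log2 fold change was -0.02, and Rxra had an unadjusted p under 0.05. The proteases that cut SREBP (Mbtps1 and Mbtps2), the LXR gene Nr1h2, the LXR target Mylip and the NF-Y genes Nfya, Nfyb and Nfyc were among them, with Nr1h2 at 50.3 and 52.9 FPKM with and without GM-CSF. Nr1h3, the other LXR gene, was under 1 FPKM in every library.

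Among 16 genes of uptake, storage and trafficking 14 were tested, 2 rose (14.3%, against 7.68% of all tested genes) and 5 fell (35.7%, against 14.2%). Apoe, a cholesterol acceptor made by macrophages among other cells, measured 14.5, 13.8 and 12.2 FPKM with GM-CSF and 21.2, 18.4 and 25.4 FPKM untreated (log2 fold change -0.63, SE 0.12, limma adjusted p = 0.0117). Dgat1, which makes triglyceride, fell to 18.7 ± 1.77 FPKM with GM-CSF, against 28.5 ± 5.12 FPKM untreated (-0.57, adjusted p = 0.0291). Pltp, a phospholipid transfer protein, fell to 11.6 ± 1.61 FPKM, against 17.4 ± 2.61 FPKM untreated (SD, n = 3 each; -0.54, adjusted p = 0.0304). The call of Dgat1 ended without any GM-CSF replicate or without untreated replicate 1 or 2 (adjusted p between 0.0569 and 0.0942), and that of Pltp without GM-CSF replicate 2 or 3 or untreated replicate 2 or 3 (0.0693 to 0.0885). Apoe was also 1 of the 3 macrophage and dendritic cell markers that fell, with Csf1r and Lyz2, and the part of those cells was not tested. Lipa, the lysosomal cholesterol esterase, was listed at 0 in GM-CSF replicate 1 and at 39.2 to 50.4 FPKM in the other 5 libraries.

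Under the alternatives run, 8 of the 12 calls held in every setting in which the gene was tested, 16 for most genes. These were the rises of Acat2, Hmgcs1, Idi1, Fdps, Sqle, Insig1 and Stard4 and the fall of Acss2. The calls of Msmo1, Lss, Ebp and Abca1 were lost in at least 5 settings each, as given above.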

How the data were processed

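Polyadenylated RNA of 3 GM-CSF and 3 untreated eosinophil cultures was sequenced from libraries made with a stranded mRNA kit, per the labels' protocols. Per the submitters' processing notes, bcl2fastq 1.8.4, TopHat, TopHat2, Cufflinks and the build mm10 were used, without saying in which order. For each library, 30374 RefSeq transcripts are listed with FPKM, coverage and length. The authors deposited FPKM, which was the value tested, and a coverage signal per transcript, which served only to learn depth. Transcript length is in nt.

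FPKM were summed per gene symbol. Genes averaging 1 FPKM or more (10106) were fitted with limma 3.58.1 in R 4.3.3 on log2(FPKM + 1), with a trend, two-sided, all 6 libraries and no covariate, and Benjamini-Hochberg adjusted. Intervals are 95% limma intervals, unadjusted. The files hold no counts, so no count test was run. The fit was tested on simulated log values. Coordinates are GRCm38, the same assembly as mm10.

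Members and gene lists were chosen with earlier results of these data known. Branch counts and medians are descriptions. Per-library values are printed for called members, the most abundant member of each branch and Fads1, while single cell type markers, Nr1h2 and Lipa were added after their values were seen, and of the other pathway genes up to 3 called ones per list. One result is not reported here. Alternatives covered pseudocount, filter, scaling, a replicate block, transcript choice, trend and each library left out. Adding Acat3 to Acat2 was chosen after seeing the data.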

Additional observations from a re-analysis of the deposited data

How the results depend on the processing

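Rises of all genes ranged from 627 to 715 and falls from 888 to 1117 when 1 library was left out, and scaling to one FPKM sum gave 913 falls. In the sterol branch the 7 rises ranged from 5 to 7 without 1 library, and the count of falls, 1 as reported, was 0 without any library, with median-of-ratios, quantile or one-sum scaling, with the replicate block, with the highest transcript per gene and without a trend. In the fatty acid branch the count of rises was 1 with median-of-ratios factors and 1 with quantile normalization, and the falls were 2 with the replicate block and 1 to 2 without 1 library. Among regulators and sterol handling genes 1 fell at a mean of at least 5 FPKM. The efflux falls were 0 without a filter, at a mean of at least 5 FPKM (where Abca1 is not tested), with the 3 scalings, the replicate block or the highest transcript, and 0 to 1 without 1 library. Other pathway genes had 3 falls with median-of-ratios factors and 3 to 6 without 1 library, and 4 to 5 rises.

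The sterol branch median of 0.24 was 0.15 with a pseudocount of 5, 0.30 with median-of-ratios factors, 0.29 with quantile normalization and 0.22 to 0.28 without 1 library. The fatty acid median of -0.11 was -0.21 at a mean of at least 5 FPKM, -0.0246 with quantile normalization and -0.17 to -0.0302 without 1 library. The ratio of summed FPKM, 1.18 in the sterol branch, was 1.24 with median-of-ratios factors, 1.22 with one-sum scaling, 1.21 with quantile normalization and 1.17 to 1.19 without 1 library. In the fatty acid branch, 0.929, it was 0.978, 0.960 and 0.950 under the same scalings and 0.910 to 0.951 without 1 library. The cause was not tested.

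Direction turned, in no case past the threshold, for Pmvk (0.00873 with the highest transcript), Ggps1 (0.00470 with median-of-ratios factors), Dhcr7 (0.00372 with median-of-ratios factors, 0.0278 with quantile normalization), Acly (0.0448 with median-of-ratios factors, 0.0193 with one-sum scaling, 0.35 with the highest transcript), Insig2 (-1.11 with the highest transcript) and Tecr (0.26 with the highest transcript). Without 1 library, Dhcr7 ranged from -0.123 to 0.0479, Acly from -0.059 to 0.0109, Elovl5 from -0.048 to 0.096 and Insig2 from -0.0126 to 0.173. The deviations of same-numbered libraries correlated between -0.03 and 0.05, and those of differently numbered ones between -0.07 and 0.09. No shared deviation was thus seen, but this cannot show whether same-numbered cultures had a common source. With the replicate block 1996 genes were called in place of 2212, Fads1 and Fdft1 passed, and Msmo1, Lss, Ebp, Abca1 and Pltp did not. The SE of tested members ran from 0.0414 (Ebp) to 0.135 (Hsd17b7).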

Other observations

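Transcripts of the same gene were not resolved evenly, so gene sums were read above. Of the Insig2 transcripts, one of 2461 nt held 7.30, 0.01 and 0.02 FPKM in GM-CSF replicates 1 to 3 and 8.36, 0.02 and 8.09 FPKM in untreated replicates 1 to 3. Another of 2454 nt held 0.00, 8.95 and 8.15 FPKM with GM-CSF and 0.02, 6.08 and 0.12 FPKM untreated. The signal thus sat in one or the other transcript within both groups, while the gene sum ran from 6.58 to 9.60 FPKM. For Acly, the transcript of 4427 nt measured 32.7, 35.3 and 33.5 FPKM with GM-CSF and 29.9, 18.4 and 33.1 FPKM untreated, and the one of 4397 nt 10.7, 7.94 and 11.4 FPKM with GM-CSF and 12.9, 25.9 and 14.1 FPKM untreated. Untreated replicate 2 divided the gene differently from the other 5 libraries at a similar sum. Mvd had a coding transcript of 1761 nt and a noncoding one of 1864 nt, at 4.22, 9.86 and 7.07 and at 7.19, 2.51 and 4.52 FPKM with GM-CSF, against 6.31, 7.95 and 5.77 and 4.11, 4.93 and 3.15 FPKM untreated.

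A further 5 pathway genes passed and were not described above. Acsl4, which activates arachidonic acid, measured 37.4 ± 0.340 FPKM with GM-CSF and 29.4 ± 0.520 FPKM untreated (SD, n = 3 each; log2 fold change 0.34, limma adjusted p = 0.00149), while the related genes Acsl1, Acsl3 and Acsl5 did not pass (-0.20, -0.05 and -0.12). Lpcat3, which puts polyunsaturated chains into phospholipids, measured 45.0 ± 1.69 and 39.3 ± 0.924 FPKM (0.19, adjusted p = 0.0262), and Osbp, a sterol carrier at membrane contacts, 24.3 ± 0.807 and 20.6 ± 0.429 FPKM (0.23, adjusted p = 0.0136). Abca7, a lipid transporter, fell to 28.6 ± 1.26 FPKM with GM-CSF, against 36.1 ± 0.908 FPKM untreated (-0.33, adjusted p = 0.00437), and Npc2, which carries cholesterol out of lysosomes, to 43.4 ± 1.02, against 48.3 ± 0.828 FPKM (-0.15, adjusted p = 0.0343). Acsl4, Lpcat3, Osbp, Abca7 and Npc2 were chosen after their values were seen.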
